A study of Homo sapiens with 2 samples.

Results

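Histone genes, 84 of the 21357 genes named on the array, were compared between 2 subclones of HMC1, an established human mast cell leukaemia line. They were read by 110 of the 54675 probe sets. A probe set was taken when its platform gene symbol was that of a core or linker histone gene, and a probe set with several symbols was taken when all of them were histone symbols. Of the 110, 72 belonged to the replication-dependent genes, 38 to the variant genes, and 25 of the 110 carried several symbols. The CD2-positive subclone had been sorted by FACS as HMC1 cells carrying the adhesion receptor CD2 on their surface, and the CD2-negative subclone as HMC1 cells without it. No treatment is given for either, and each group was 1 array of 1 subclone, so no difference below has a replicate check, an error or a p-value.

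Histones are the proteins around which DNA is wound: H2A, H2B, H3 and H4 form the nucleosome core and H1 binds the linker DNA. The replication-dependent genes lie in clusters, are transcribed in S phase, and give mRNAs that usually end in a stem-loop in place of a poly(A) tail, which SLBP binds. The variant or replacement genes, such as H2AZ1, H3-3A and H3-3B, are scattered over the genome and are transcribed through the cell cycle with poly(A) tails. Array labelling that starts from an oligo-dT primer copies mainly tailed RNA; for these arrays the primer is not stated in the sources. In bulk RNA, fewer cells in S phase and less histone RNA per cell cannot be told apart.

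Promoters of a choice of histone genes above the floor are shown first, with counts of motif letters by class and type. Of the 84 histone genes named by these probe sets, 73 had an entry in the RefSeq promoter table (GRCh38.p14), with 82 windows of 300 bases, from 250 before to 50 after a start. The letters ATTTGCAT, the octamer known from H2B promoters, were searched on both strands. They stood in 14 of 18 windows of replication-dependent H2B genes (77.8%) and 8 of 13 of H2A genes (61.5%). Among the other replication-dependent types they stood in 1 of 11 windows of H3, 0 of 13 of H4 and 0 of 6 of H1 genes. Variant genes had them in 1 of 21 windows, against 1.77% of all 35116 windows. The H3 window with the octamer, an H3C4 entry, has the position and letters of the H2AC7 window. Windows of H2A and H2B genes that start close together on opposite strands overlap, so an octamer can count for both types. CCAAT stood in 83.6% of the replication-dependent, 76.2% of the variant and 34.6% of all windows, and TATAAA in 65.6%, 23.8% and 11.5%. Below are the 150 bases before the start, 5′ to 3′ on the gene's strand, with ATTTGCAT, CCAAT and TATAAA on either strand in capitals. A match is a description of letters and not of a bound site.
H2AC6 (replication-dependent H2A, chr6:26124022-26124171, plus strand): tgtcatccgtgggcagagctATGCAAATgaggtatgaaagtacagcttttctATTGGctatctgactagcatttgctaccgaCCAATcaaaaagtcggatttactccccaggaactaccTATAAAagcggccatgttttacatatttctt
H2BC12 (replication-dependent H2B, chr6:27146859-27147008, minus strand): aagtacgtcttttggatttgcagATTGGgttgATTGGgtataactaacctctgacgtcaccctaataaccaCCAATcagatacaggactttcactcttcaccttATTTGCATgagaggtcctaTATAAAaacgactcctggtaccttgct
H2BC5 (replication-dependent H2B, chr6:26157971-26158120, plus strand): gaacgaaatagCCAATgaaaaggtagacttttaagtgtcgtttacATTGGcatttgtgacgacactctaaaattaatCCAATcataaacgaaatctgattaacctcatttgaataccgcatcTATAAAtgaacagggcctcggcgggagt
H2AC18 (replication-dependent H2A, chr1:149842751-149842900, minus strand): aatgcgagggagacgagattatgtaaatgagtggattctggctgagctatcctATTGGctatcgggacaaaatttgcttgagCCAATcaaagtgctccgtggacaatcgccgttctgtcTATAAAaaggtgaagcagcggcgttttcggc
H1-2 (replication-dependent H1, chr6:26056471-26056620, minus strand): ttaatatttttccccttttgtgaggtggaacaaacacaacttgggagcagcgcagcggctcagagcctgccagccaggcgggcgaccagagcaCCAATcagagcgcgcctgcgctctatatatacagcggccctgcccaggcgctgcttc
H2AJ (variant, chr12:14774255-14774404, plus strand): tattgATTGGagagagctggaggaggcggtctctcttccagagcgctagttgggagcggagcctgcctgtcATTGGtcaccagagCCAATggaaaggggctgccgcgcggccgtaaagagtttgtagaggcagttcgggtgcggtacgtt
H2AX (variant, chr11:119095466-119095615, minus strand): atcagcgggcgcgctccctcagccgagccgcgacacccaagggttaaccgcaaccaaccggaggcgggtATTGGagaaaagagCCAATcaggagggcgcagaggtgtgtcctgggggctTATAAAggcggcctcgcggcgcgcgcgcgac

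H2AC6 and H2BC4 start 246 bases apart on opposite strands, so the octamer of H2AC6 stands between the starts of both genes. H2BC5 has no ATTTGCAT in its printed stretch, unlike H2BC12. The stretch of the variant gene H2AJ holds CCAAT letters and neither of the other motifs, and that of H2AX holds CCAAT and TATAAA.

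The sorting gene followed the labels: CD2 read 219 against 13, a log2 difference of 4.07. All 8 named mast cell markers read above 64 on an array, while the 16 named markers of T and NK, B, monocytic, fibroblast and epithelial cells did not reach 64, and 12 of them read 4 or less on both arrays. The 8 mast cell markers were all higher in the CD2-positive sample, against 41.9% of all genes that reached 64. Their median log2 difference was 0.59. Past 2-fold were CPA3 (1220 against 207) and HPGDS (187 against 80), where 1.21% of all genes were that much higher. Probe sets for Bacillus transcripts read 1 to 4. Values are RMA intensities, and every log2 difference is CD2-positive minus CD2-negative. A probe set was compared where its higher array reached 64, and it was counted as changed at a 2-fold difference.

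Of the 110 histone probe sets, 26 (23.6%) reached 64 on an array, against 10.2% of all probe sets. Another 47 (42.7%) read no more than 4 on both arrays, against 54.9% of all. Replication-dependent H1, H3 and H4 genes had 1 of 7, 0 of 11 and 1 of 16 probe sets reaching 64, and the variant H1 genes 0 of 6. Replication-dependent H2B had 8 of 20 above the floor and H2A 4 of 16. The testis genes H1-6, H2BC1 and H3-4 read 1 to 3, and H1-10, a linker variant, read 4 and 5.

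Replication-dependent histone probe sets read lower in the CD2-positive subclone. Of the 14 above the floor, 13 had a negative and 1 a positive difference, and the median was -0.38. Among all 5583 probe sets above the floor, 54.4% had a negative and 43.3% a positive difference, and the median was -0.04. None of the 14 was 2-fold lower, against 0.806% of all probe sets. At 1.5-fold, 4 of the 14 were lower, against 4.10% of all, and 1 was higher, against 4.57%. Of those 4, H2AC6 (62 against 96) and the probe set of H2BC11 and H2BC8 (37 against 64) passed the floor on the CD2-negative array only. Among the variants, H2AJ (64 against 29) and an H2AZ2 probe set (80 against 50) passed it on the CD2-positive array only. Of the 12 variant probe sets above the floor, 6 were negative and 6 positive, with a median of 0.03. The replication-dependent median thus lay 0.41 below the variant median. The variant signs went by gene. The negative ones were all of MACROH2A1 or shared by H3-3A and H3-3B, and the positive ones were of H2AJ, H2AX, H2AZ1 and H2AZ2. With 1 probe set per gene, which left no variant H3 probe set, the variant median was 0.15. The replication-dependent minus variant difference was then -0.51. Many histone probe sets share sequence with several genes, and some genes have several probe sets. Neither the 14 nor the 12 are thus independent measurements.

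**Figure D1:**
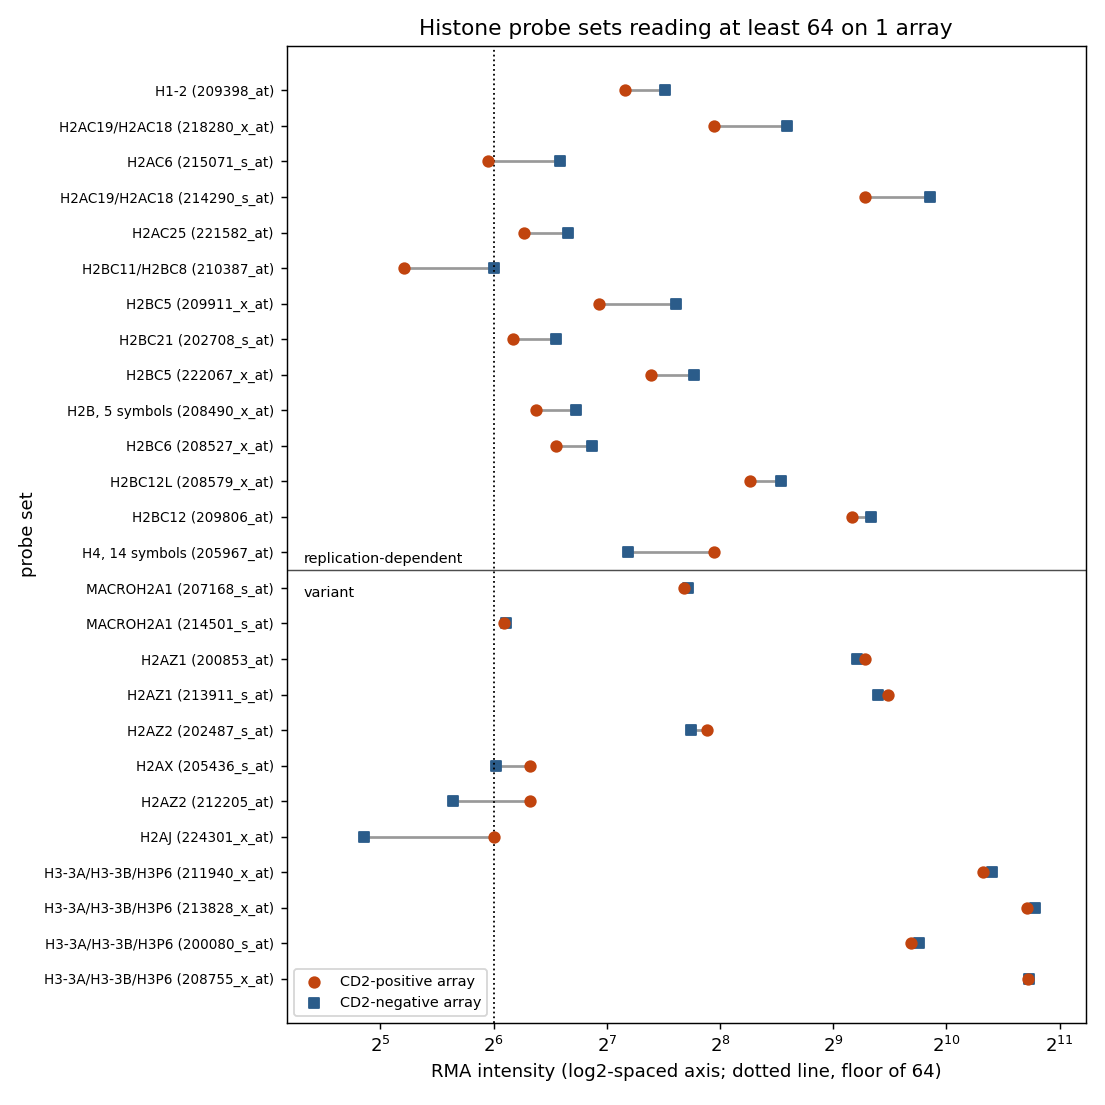
RMA intensity on both arrays (horizontal axis, log2-spaced) of the 26 histone probe sets that reached 64 on an array; circles are the CD2-positive and squares the CD2-negative array, with 1 array per group and no error bars. In the replication-dependent block the circle lies left of the square in 13 of 14 lines, the H4 probe set being the exception, while most variant pairs nearly coincide.

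The H2A genes had the most negative median, -0.60 over 4 probe sets. That order turned with identifiers without _s, _x or _a, where the H2A median was -0.39, from H2AC25 alone, and the H2B median -0.48. Of the 3 probe sets annotated to H2AC18 and H2AC19, twin H2A genes of the chromosome 1 cluster that they cannot separate, 2 were above the floor and lower in the CD2-positive sample, and the third read 2 against 3. One read 623 against 926 (1.49-fold lower, log2 difference -0.57), and the other 247 against 386 (1.56-fold, -0.64). H2AC6, the H2A gene of the divergent pair shown above, read 62 against 96 (1.55-fold, -0.63). H2AC25, an H2A gene of a smaller chromosome 1 cluster, read 77 against 101 (1.31-fold, -0.39). All 4 were thus lower, and the H2AC18 and H2AC19 pair and H2AC6 differed by nearly the same factor. Differences this negative were found in 3.03% of all probe sets above the floor for H2AC18 and H2AC19's lower value (-0.64) and in 10.7% for H2AC25.

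All 8 H2B probe sets above the floor were lower, with a median of -0.36. The farthest was the probe set annotated to H2BC11 and H2BC8, at 37 against 64 (1.73-fold, -0.79). H2BC5 was measured by a pair of probe sets, at 122 against 196 (-0.68) and 168 against 218 (-0.38). Both were lower and their sizes differed. The spread of the difference of 1 probe set within these arrays was 0.13 (SD), taken from 937 genes with a second probe set above the floor; it covers probe behaviour and not the spread between cultures.

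The remaining H2B probe sets differed less. H2BC21, a gene of the larger chromosome 1 cluster, read 72 against 94 (-0.38). A probe set with 5 H2B symbols read 83 against 106 (-0.35). H2BC6, 1 of those genes, read 94 against 117 (-0.32) on a probe set with that symbol alone. H2BC12L, an H2B gene on chromosome 21 outside the clusters, read 307 against 372 (-0.28). The 5-symbol, H2BC6, H2BC12L and both H2BC5 probe sets have an _x in the identifier, as H2AJ probe sets below do. With single symbols and no _x, an alternative chosen after seeing the data, H2BC21 and H2BC12 were left and the H2B median was -0.27. H2BC12 read 575 against 644, the smallest difference of the type (1.12-fold, -0.16). It turned to 0.02 when the arrays were centred on the hybridisation controls. The linker gene H1-2, the only H1 gene above the floor, read 143 against 183 (1.28-fold, -0.36).

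The exception was H4. A probe set annotated to 14 H4 genes read 247 on the CD2-positive array against 146 (1.69-fold higher, 0.76). Only 2.24% of all probe sets above the floor had a difference as high. No other H4 probe set of 16 or more was higher. Of the 5 probe sets with the same 14 symbols, 3 read 2 or 3 on both arrays, and the fifth read 17 against 19. Of 10 single-symbol H4 probe sets, all below the floor, 4 were lower, 1 was higher (H4C9, 7 against 6) and 5 were equal. Among the lower ones, H4C8 read 24 against 35 (-0.54) and 8 against 14 on its second, and H4C11 read 15 against 20 (-0.42). These H4 genes were singled out after their values were seen. Over the 4 H4 probe sets that reached 16 the median was -0.29. H4C16, 1 of the 14 genes, is the direct neighbour of H2AJ in RefSeq gene order on chromosome 12. No probe set carried the H4C16 symbol alone, and a link between the H4 and H2AJ readings was not tested.

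Dimmer replication-dependent probe sets, whose higher array read 16 to 63, all lay on the same side. All 15 were negative, with a median of -0.45, against 47.0% negative and a median of 0.00 over the 9084 probe sets in that range. The H3 genes appear only here: H3C8 read 25 against 30 (-0.26) and a probe set with 10 H3 symbols 21 against 27 (-0.36). The most negative was annotated to H3 genes and H2AC7 together, at 12 against 22 (-0.87). That probe set reached 16 on the CD2-negative array only. So did H2AC17 (13 against 19), H4C11 (15 against 20) and a probe set with 6 H2A symbols (13 against 18). H2AC8 read 17 against 28 (-0.72), and rounding alone lets its fold lie between 1.57 and 1.73. Nearest to the floor, H2BC9 read 52 against 63 (-0.28) just under it, and the probe set of H2BC11 and H2BC8 read 37 against 64 (-0.79) just inside it. Counting every replication-dependent probe set of 16 or more, 28 of 29 were lower, against 49.8% of all 14667 probe sets at that level.

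**Figure D2:**
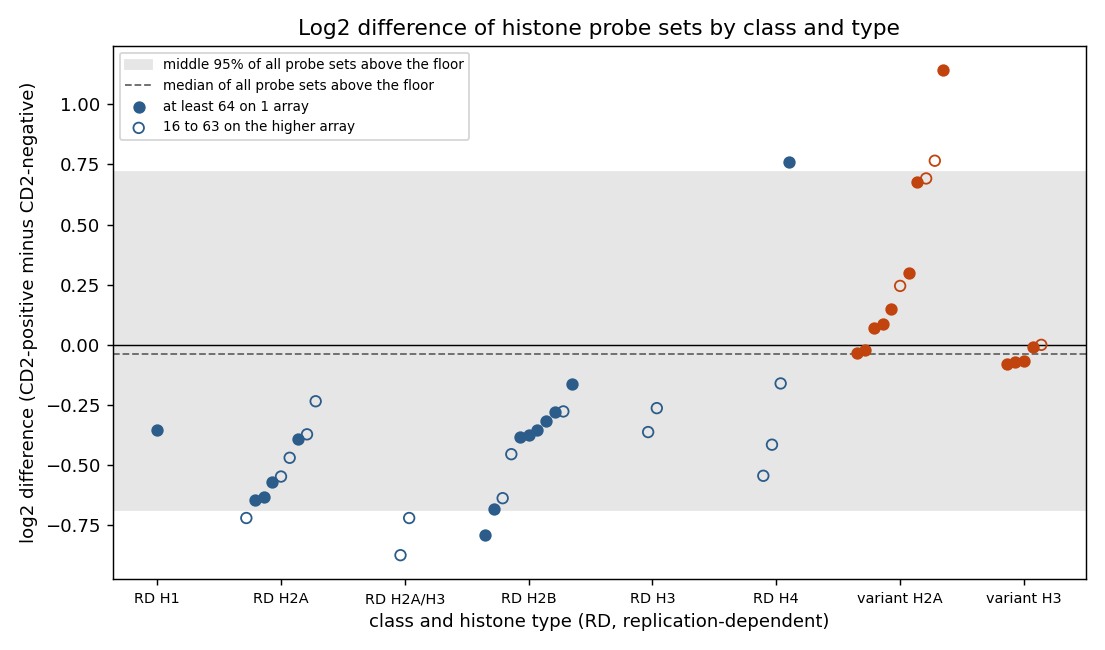
Log2 difference (vertical axis) of each histone probe set of 16 or more by class and type, with filled points for 64 or more and open points for 16 to 63; the band is the middle 95% of all probe sets above the floor, from -0.68 to 0.72, and the dashed line their median of -0.04. Replication-dependent points sit below 0 apart from 1 H4 probe set, most of them inside the band, and variant H2A points sit at or above 0 apart from MACROH2A1.

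**Figure D3:**
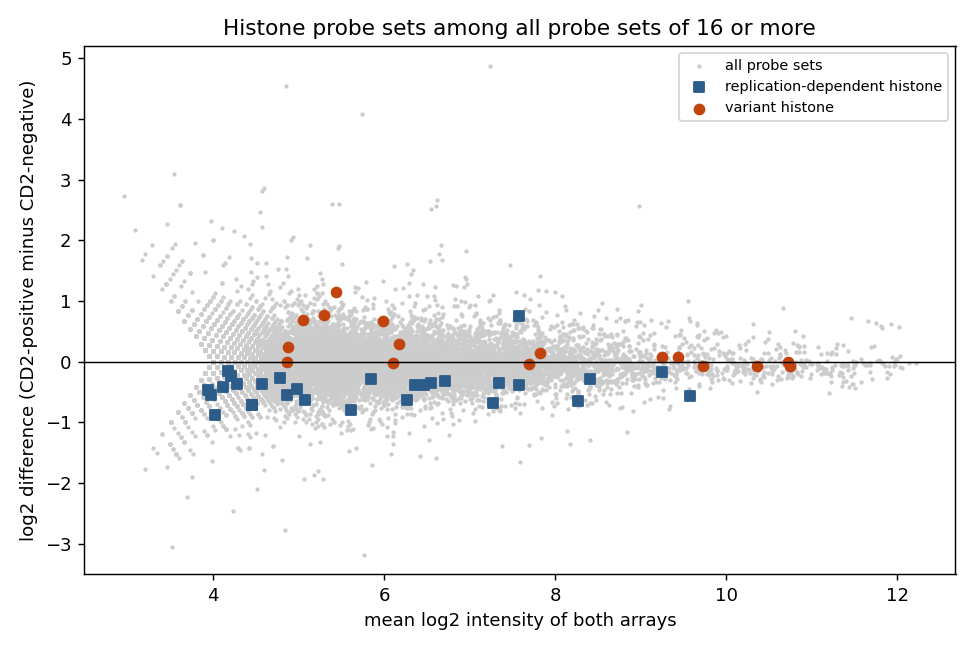
Log2 difference (vertical axis) against mean log2 intensity of both arrays (horizontal axis) for every probe set of 16 or more, with replication-dependent histones as squares and variants as circles. Of the 29 squares, 28 lie below 0, from the dimmest to the brightest levels and inside the cloud of all probe sets, and the H4 probe set lies above 0, at 0.76.

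Among the variants, H2AJ differed most and was the only histone probe set past 2-fold, with 1 of the 26 higher against 1.18% of all probe sets. H2AJ encodes an H2A variant and lies on chromosome 12. It read 64 on the CD2-positive array against 29 (2.21-fold higher, 1.14), with a range of 2.15 to 2.26 from rounding. Its second probe set read 51 against 30 (0.77), in the same direction, and the others read 2 or 3. The values of 64 and 51 came from probe sets with an _x in the identifier, and the others have none. The value of 64 stands exactly at the floor, so the call is lost at a floor of log2 7. It is also lost when _x probe sets are left out.

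H2AZ2, which encodes the second H2A.Z protein, was higher on all of its 4 probe sets but to unlike degrees. The brightest read 237 against 214 (0.15), the next 80 against 50 (0.68), and the dim ones 42 against 26 (0.69) and 32 against 27 (0.25). H2AZ1, which encodes the main H2A.Z protein found at promoters, read 621 against 591 (0.07) and 714 against 673 (0.09). The 2 genes thus had positive values throughout, small for H2AZ1. H2AX encodes the variant phosphorylated at DNA breaks, and its mRNA exists in stem-loop and tailed forms. It read 80 against 65 (1.23-fold higher, 0.30), and its dimmer probe sets read 15 against 11, 9 on both arrays, and 3 against 2.

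The remaining variants above the floor differed by at most 0.08. MACROH2A1, which encodes the large macroH2A found on silent chromatin, read 205 against 210 (-0.03) and 68 against 69 (-0.02). Of its 5 dim probe sets, 1 read 11 against 6, 1 read 3 against 4, and the others read equal on both arrays at 15, 7 and 2. MACROH2A2 read 9 against 8. The 4 probe sets shared by H3-3A, H3-3B and the pseudogene H3P6, the genes of the replacement histone H3.3, read 825 to 1688 on the CD2-positive array and 864 to 1758 on the other, with differences from -0.08 to -0.01. A dim H3-3A probe set read 29 on both. Another 4 probe sets carry a microRNA symbol beside H3-3A and H3-3B and were not counted; their differences ran from -0.08 to 0.05. All 8 shared H3.3 probe sets thus lay within 0.08 of 0. Centring on the hybridisation controls turned MACROH2A1 and all 4 H3.3 probe sets to positive values of 0.10 to 0.17, as given under the alternatives.

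The clusters lie on different chromosomes, and neighbouring genes give a local comparison. The neighbours were up to 50 other genes above the floor on each side, in RefSeq gene order. Around the large cluster on chromosome 6 the median of 80 neighbours was -0.01, and the 8 histone probe sets there had a median of -0.37. Around the HIST2 cluster on chromosome 1 the median of 109 neighbours was -0.20, and the 3 histone probe sets had a median of -0.57. H2AC25 in the HIST3 cluster (-0.39) was close to its 77 neighbours, whose median was -0.34. With chromosome 6 probe sets alone the replication-dependent median was -0.37. H2AJ and H2AZ2 had neighbours with medians of 0.00. The H2AX neighbours had a median of -0.09, and those of H3-3A -0.34. By side, the 50 genes before H2AX had a median of -0.14. The 11 after it had a median of 0.33, close to the 0.30 of H2AX. The part of the chromosome 1 neighbourhood in the chromosome 1 histone values was not tested.

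**Figure D4:**
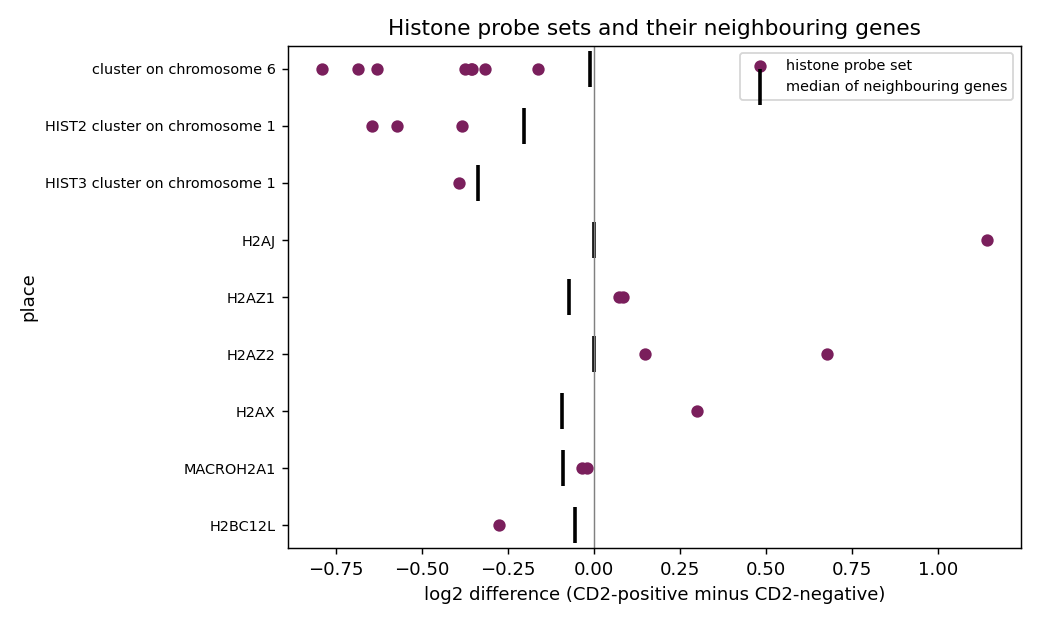
Log2 difference (horizontal axis) of histone probe sets above the floor whose symbols lie in 1 place (points) beside the median of neighbouring non-histone genes there (vertical bar). On chromosome 6 the 8 points lie left of a bar at -0.01, while H2AC25 in the HIST3 cluster lies close to its bar.

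Genes that serve histone supply were split between the directions. Of the 15 genes of histone mRNA processing, 7 reached the floor, 4 of them higher and 3 lower, with a median of 0.04; over all 3564 genes above the floor 41.9% were higher and the median was -0.05. SLBP, the stem-loop binding protein gene, read 171 against 166 (0.04). The largest difference of the list was that of CPSF3, the nuclease that cuts histone pre-mRNA, at 91 against 61 (0.58). NPAT, the activator of histone transcription, read 32 against 33, below the floor. Of the 25 chaperone and assembly genes, 12 reached the floor, 6 higher and 6 lower, with a median of 0.01. RBBP4, a subunit of several histone-binding complexes, read 64 against 50 (0.36), and NASP, the H3 and H4 chaperone gene, read 140 against 111 (0.33).

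DNA replication and S phase genes read mostly the other way from the replication-dependent histones. Of 25 named genes, 10 reached the floor: 8 higher, 1 lower and 1 equal, with a median of 0.17. RRM2, the ribonucleotide reductase subunit gene, was the only one past 2-fold, at 199 against 77 (2.58-fold higher), where 1.21% of all genes were that much higher. PCNA, the sliding clamp gene, was the lower one at 446 against 679 (-0.61). TYMS, the thymidylate synthase gene, read 375 on both arrays. The centromeric H3 gene CENPA, which the symbol rule does not cover, read 37 against 34.

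The directions depend in part on scaling. The 18 probe sets of the hybridisation controls were all lower in the CD2-positive sample (median -0.18). Centring on them moved the median of all probe sets above the floor from -0.04 to 0.14 and left 1636 of 5583 negative in place of 3039. On that scale 12 of the 14 replication-dependent probe sets were still negative, with a median of -0.20, and all 12 variant probe sets were positive, with a median of 0.21. The distance between the classes is not affected by such a shift.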

How the data were processed

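RNA of the 2 subclones was hybridised to Affymetrix U133 Plus 2.0 arrays, 1 array each. Per the submitters' processing notes, the authors made the deposited RMA intensity values in Expression Console 1.1; they are linear and whole numbers, as the values show. RMA forces both arrays onto 1 distribution, and rounding makes low values coarse. The kind of background correction is not stated in the sources.

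Values were turned to log2 and subtracted. The platform annotation gave the names, with 1 symbol for 41097 of 54675 probe sets. Probe sets were compared at a floor of 64 and counted at 2-fold. Replication-dependent genes were those with cluster symbols (H2AC, H2BC, H3C, H4C, H1-1 to H1-6 and H3-4). Named were all histone probe sets above the floor, those of chosen variants at any level and, per supply list, genes past 2-fold or the largest difference; others were chosen after their values were seen. Members and lists were chosen with earlier results of these data known. Alternatives were other floors, size rules, centrings, a lowess correction and other choices of probe set. The size rule was tested on simulated data. Python 3.11.15, pandas 2.3.3 and statsmodels 0.14.6 were used. The number of arrays limits the precision.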

Additional observations from a re-analysis of the deposited data

How the results depend on the processing

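The replication-dependent median stayed negative, and below the variant median, under all settings run. No paired analysis was possible because each group holds 1 array. Centring on the hybridisation controls gave -0.20 for the replication-dependent and 0.21 for the variant median, and by type -0.17 (H1), -0.42 (H2A), -0.18 (H2B), 0.94 (H4), 0.30 (variant H2A) and 0.11 (variant H3, from -0.07). The variant median, near 0, turned to -0.022 at a floor of log2 7, to -0.010 without H2AX and to -0.015 with the microRNA-annotated H3.3 probe sets, an alternative chosen after seeing the data.

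The H4 median was 0.11 at a floor of log2 5, -0.29 at log2 4 and 0.00 with no floor; the variant H2A median was 0.25 at the first 2 of these. With no floor, the class distance was -0.28, the H1 median 0.00 and the H2A median -0.43, and 1 probe set was 2-fold lower. That was H2BC1 at 1 against 2, where rounding alone lets the fold lie between 1 and 5. Identifiers without _s, _x or _a gave a variant median of 0.37, a class distance of -0.73, an H2A median of -0.39 and a variant H2A median of 0.37. With those identifiers only H2AZ1 (0.07) and H2AZ2 (0.68) were left as variants above the floor, and only H2AC25 as H2A. H2AJ was the only 2-fold call, and the count of higher probe sets was 0 at a floor of log2 7, with those identifiers, at 3-fold, and with single symbols and no _x. At 1.5-fold 3 were higher and 4 lower.

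Of the 26 named probe sets, centring on the hybridisation controls turned 7: H2BC12 (0.019), MACROH2A1 (0.15 and 0.16) and the H3.3 probe sets (0.12, 0.17, 0.10 and 0.11). Centring on the overall median turned 3: MACROH2A1 (0.0027 and 0.016) and 1 H3.3 probe set (0.027). Lowess turned that H3.3 probe set (0.033) and 1 of MACROH2A1 (0.021). The cause of these changes was not tested beyond the size of the shift. Depth is not defined for arrays; signals near 4 cannot be told from background.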
